A study of Mus musculus with 8 samples.

Results

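Accessibility at 10 transcription factor genes that T cell receptor (TCR) stimulation induces or activates was read from 78 of the 46624 distinct regions of an ATAC-seq count table. The genes were the nuclear receptors Nr4a1, Nr4a2 and Nr4a3, the HMG-box factors Tox and Tox2, the NFAT factors Nfatc1 and Nfatc2, and the zinc finger factors Egr1, Egr2 and Egr3. A region was a member if the table assigned it to 1 of these genes, with each distinct chromosome, start and end counted as 1 region. All 78 passed the low-count filter. Regions were taken by gene name and not by their counts, but the genes were chosen with earlier results of these data known.

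ATAC-seq counts the places where a transposase could insert into open DNA. The cells came from C57BL/6 Foxp3RFP mice, in which a red fluorescent protein marks cells that express Foxp3, the lineage factor of regulatory T cells (Tregs). The 4 groups were RFP-positive Tregs from male spleen, RFP-positive Tregs from visceral adipose tissue (VAT) of males and of females, and RFP-negative CD4 T cells from male VAT, with 2 libraries each and 3 pooled mice per library. Age was not given in the sources used here, and female spleen Tregs were not analysed here. Nothing states that the 2 pools of a group came from separate sorts, so p-values measure the spread between libraries, which may be technical. In pooled cells, fewer cells with an open region and less opening per cell cannot be told apart.

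When the TCR binds antigen, calcium release activates the phosphatase calcineurin, which strips phosphates from NFAT proteins and lets them enter the nucleus. The MAP kinase branch switches on the EGR genes within the first wave of transcription, and both branches feed the NR4A genes. NR4A and TOX proteins are known from exhausted CD8 T cells, NR4A proteins also help to keep Foxp3 expressed in Tregs, and EGR2 and EGR3 restrain activated T cells.

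The starts of the NR4A genes and of Egr2 lay inside regions with counts in all 8 libraries, and their sequences are shown because these starts are where TCR signals are known to act on the genes. RefSeq (GRCm38.p6) gave promoter sequences for 6 of the 10 genes, at 15 starts: Nr4a1, Nr4a2, Nr4a3, Tox2, Nfatc2 and Egr2. The 250 bases before a start are printed 5′ to 3′ on the gene's strand, in lower case, with motif matches in capitals. The windows are chr15:101266596-101266845 (plus strand) for Nr4a1, chr2:57124004-57124253 (minus strand) for Nr4a2, chr4:48045055-48045304 (plus strand) for Nr4a3 and chr10:67537619-67537868 (plus strand) for 1 of the 5 starts of Egr2.
Nr4a1: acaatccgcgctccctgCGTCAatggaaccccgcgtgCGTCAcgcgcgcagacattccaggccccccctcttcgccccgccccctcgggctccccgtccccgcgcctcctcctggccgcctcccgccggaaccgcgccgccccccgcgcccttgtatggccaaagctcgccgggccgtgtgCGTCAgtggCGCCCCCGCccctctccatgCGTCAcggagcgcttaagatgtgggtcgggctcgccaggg
Nr4a2: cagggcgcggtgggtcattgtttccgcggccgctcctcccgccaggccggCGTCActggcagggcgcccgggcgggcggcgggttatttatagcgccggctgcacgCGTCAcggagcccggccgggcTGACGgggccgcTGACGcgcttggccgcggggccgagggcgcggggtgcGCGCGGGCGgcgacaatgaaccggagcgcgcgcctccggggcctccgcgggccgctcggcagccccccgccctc
Nr4a3: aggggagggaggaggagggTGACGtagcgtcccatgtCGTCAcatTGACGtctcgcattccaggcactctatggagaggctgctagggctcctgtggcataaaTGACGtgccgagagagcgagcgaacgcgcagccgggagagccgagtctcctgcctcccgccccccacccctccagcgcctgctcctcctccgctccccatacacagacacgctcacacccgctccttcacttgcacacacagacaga
Egr2: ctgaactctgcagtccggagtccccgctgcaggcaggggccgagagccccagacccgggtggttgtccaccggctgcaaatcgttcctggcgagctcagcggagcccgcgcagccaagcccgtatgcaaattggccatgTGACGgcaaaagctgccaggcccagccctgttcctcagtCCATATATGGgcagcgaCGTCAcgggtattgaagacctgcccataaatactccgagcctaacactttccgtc

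Each NR4A window held 4 copies of TGACG, the core of the cAMP response element (CRE) bound by CREB and ATF factors, counted on both strands. Of 32851 such windows at all RefSeq starts, 17.8% held at least 1 copy and 0.137% held at least 4. The EGR site GCGNGGGCG was found in the windows of Nr4a1 and Nr4a2 and in 4.7% of all windows. The Egr2 window had 2 copies of TGACG and a CArG box, the site of serum response factor, which 1.47% of windows held. Searched on both strands with no match in these 4 windows were the NR4A site AAAGGTCA (1.34% of all windows), the NFAT core TGGAAA (18.6%) and the AP-1 site TGANTCA (6.75%). The window of another Egr2 start in the same region, at 67537566, held a TGGAAA and a CArG box, and 1 of the Nfatc2 windows held a TGGAAA. A match describes letters and not binding.

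The members differed in how their regions were spread. Tox had 22 regions over 26588 bp, Nfatc1 15, Nfatc2 8, Nr4a3 and Egr2 7 each, Nr4a2 6, Nr4a1 and Tox2 4 each, Egr3 3 and Egr1 2. Of the 78, 41 were under 1000 bp (median 133 bp) and 37 were longer (median 3693 bp), 45 overlapped the gene they were assigned to, and 33 lay outside it, up to 635 kb away at Nr4a2. The table assigned 9 of them to a second gene too, such as Reep2 for both Egr1 regions. Exons and introns were not annotated here. Regions are named below by the gene and the distance of the region's centre from the lower-coordinate end of its gene body, so Tox +115.4 kb lies inside the 305 kb gene.

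Levels are in CPM, counts scaled to a common library total with TMM factors. Summed over all regions of a gene and divided by their length, Egr1, Nr4a3 and Egr2 were the most accessible members, at 8.67 to 11.9 CPM per kb in each of the 4 groups. The other 7 lay between 4.22 and 8.01 CPM per kb. Nr4a1 had the widest spread between groups on this scale, with 4.91 ± 0.32 (SD, n = 2) in spleen Tregs, 6.86 ± 0.114 in female VAT Tregs, 6.82 ± 0.942 in VAT CD4 cells and 8.01 ± 2.49 in male VAT Tregs. Its 2 male VAT Treg libraries held 153.8 and 98.4 CPM in sum, so the lower of them sat below the female VAT libraries (106.7 and 109.3 CPM), between the CD4 libraries (96.9 and 117.8 CPM), and above both spleen libraries (73.8 and 81.0 CPM). Nr4a2 was the flattest, with group means of 5.00 to 5.62 CPM per kb. Tox2, Nfatc1, Nfatc2, Egr1, Egr2 and Egr3 had their highest mean in spleen Tregs. For Nfatc1, Egr3 and Nfatc2 it was 5.53 ± 0.0458, 5.69 ± 0.0042 and 6.83 ± 0.276 CPM per kb.

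**Figure D1:**
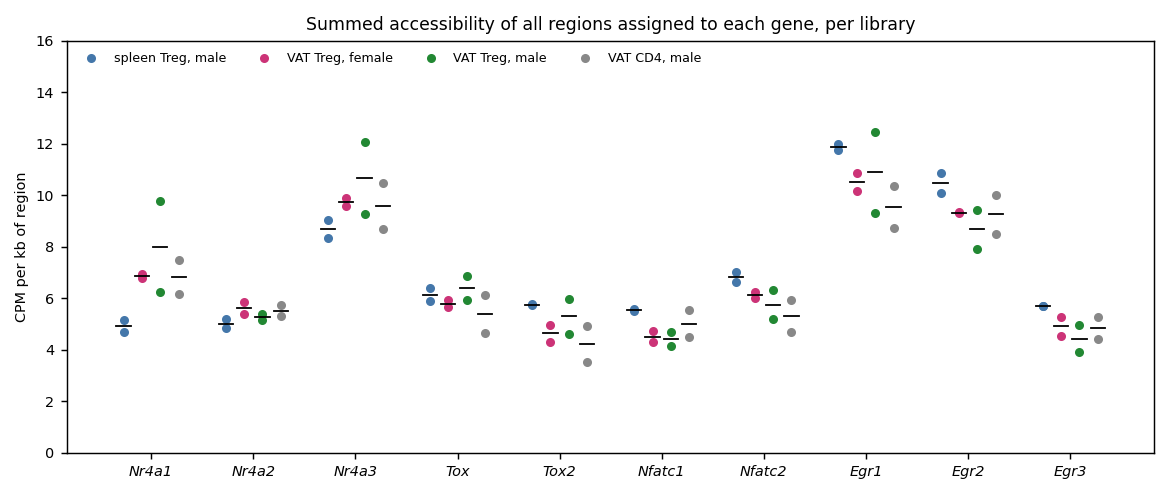
Accessibility of the 10 genes as CPM per kb of region (y axis), summed over all regions of a gene, with 1 point per library, colours for the 4 groups and a line at each group mean of 2 libraries. Nr4a1 is lowest in spleen Tregs at 4.91 CPM per kb, and 1 male VAT Treg library stands above the other at Nr4a1 and Nr4a3.

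Counts used were 5722254 to 15798875 per library. Male VAT Treg replicate 1, with 15189119 counts, had 5.56% of them in regions under 1000 bp, against 3.596 to 4.37% in the other 7 libraries. The labels were checked at Foxp3, where the region on chromosome X from 7582208 to 7585993 held 13.5 to 32.9 CPM in the 6 Treg libraries and 1.54 and 2.16 CPM in the CD4 libraries. Of 6 Foxp3 regions, 4 were higher in male VAT Tregs than in CD4 cells. Another, from 7572009 to 7576644, did not separate them (log2 fold change -0.014, with 42.7 and 24.63 CPM against 32.4 and 36.2). In male against female VAT Tregs 3 Foxp3 regions were lower, at adjusted p of 0.0106, 0.00286 and 0.0373. Of genes that mark other cells, 7 of 8 for B cells, 5 of 9 for myeloid cells, 4 of 6 for CD8 and NK cells, 5 of 6 for adipocytes and 7 of 8 for stroma and endothelium had regions, none at 0 in all libraries. Ms4a1, Lyz2, Csf1r, Adgre1, C1qa, Cd8a, Ncr1, Lep and Dcn had no region. Mean CPM per B cell marker region was 12.4 to 12.6 in spleen Tregs, 12.2 to 12.4 in female and 8.67 to 12.0 in male VAT Tregs, and 10.3 to 11 in CD4 cells. Adipocyte marker regions held 6.46 to 6.95 CPM in male VAT Tregs and 8.16 to 9.22 CPM in the other libraries, and CD8 and NK marker regions 14.8 to 15 CPM in CD4 cells and 12.7 to 14.3 CPM in the Treg libraries. Myeloid (10.1 to 13.2 CPM) and stromal marker regions (8.33 to 9.53 CPM) showed no group apart from all others. The part of other cells in the results was not tested.

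The comparison of male Tregs between fat and spleen asks how they differ between tissues within 1 sex. Regions inside Tox and Nr4a1 and single short regions inside Nfatc2 and Nr4a3 were more open in fat, while other regions of Tox, Nr4a3, Nfatc2 and Egr2 were less open. Of the 78 regions, 7 rose and 5 fell at an adjusted p under 0.05. Over all 45709 regions tested, 4.64% rose and 2.09% fell, so 68.9% of calls were higher. That share was 41.9% without male VAT Treg replicate 1 and 44.1% with libraries scaled on regions under 1000 bp. The median log2 fold change was -0.14 over the members and -0.01 over all regions. When libraries were scaled on regions under 1000 bp, the split was 6 higher and 8 lower, and the median of all regions moved by -0.168. Of the member regions under 1000 bp, 4 of 41 rose and 1 fell, beside 10.2% and 1.07% of all such regions, and of the longer ones 3 of 37 rose and 4 fell, beside 1.54% and 2.66%. Without male VAT Treg replicate 1, 2 members rose and 1 fell, and without replicate 2 the counts were 11 and 3. Without spleen replicate 1 or 2, 6 rose in each case and 1 or 3 fell.

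Tox encodes a nuclear factor needed for CD4 lineage commitment in the thymus and for the exhausted state of CD8 cells. Its leading region was Tox +289.6 kb, 3263 bp inside the gene (chromosome 4, 6974274 to 6977537). It held 13.5 and 13.1 CPM in spleen Tregs, 37.7 and 28.0 CPM in male VAT Tregs, 25.9 and 27.7 CPM in female VAT Tregs, and 16.4 and 19.5 CPM in VAT CD4 cells. The groups did not overlap, and male VAT Tregs stood highest, then female VAT Tregs, CD4 cells and spleen Tregs. The log2 fold change of male VAT over spleen Tregs was 1.32 ± 0.20 (approximate standard error, n = 2 per group, edgeR adjusted p = 2.34e-08). Female VAT over male spleen Tregs, where sex and tissue differ together, gave 1.02 ± 0.20 (0.000239). These 2 calls held without any 1 library and under each alternative. The male and female VAT values did not differ beyond their spread (0.30 ± 0.19, adjusted p = 0.531, approximate 95% interval -0.073 to 0.678).

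A pair of short regions in the middle of the gene was nearly closed outside male VAT Tregs. Tox +115.4 kb (chromosome 4, 6801705 to 6801882) had 1 and 4 counts in spleen Tregs, 10 and 3 in female VAT Tregs, 7 and 4 in CD4 cells, and 80 and 24 in male VAT Tregs. In CPM the male VAT Treg libraries held 5.07 and 2.56, above each of the other 6, of which the highest was 1.35. Against spleen the log2 fold change was 4.22 ± 0.70 (adjusted p = 6.24e-07), a call that held whichever library was dropped. Its neighbour Tox +114.2 kb (6800471 to 6800602) had 1 and 4 counts in spleen, 2 and 3 in female VAT Tregs, 2 and 4 in CD4 cells, and 37 and 17 in male VAT Tregs. It rose by 3.34 ± 0.84 (0.00337), but without male VAT Treg replicate 1 the adjusted p was 0.101. The sources used here give no peak caller, so a region listed only because of its signal in 1 group would differ there by that choice.

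In the same comparison Tox also had regions that fell. Tox +62.1 kb (6747520 to 6749321) held 12.7 and 8.90 CPM in spleen against 5.64 and 6.51 CPM in male VAT Tregs (-0.82 ± 0.27, adjusted p = 0.0397). Tox +405.0 kb, 99.8 kb beyond the upper end of the gene, had 24 and 13 counts in spleen against 2 and 5 (-2.51 ± 0.82, 0.0390). Both calls were lost without spleen replicate 1 (0.483 and 0.599) or male VAT Treg replicate 1 (0.209 and 0.386) and in the DESeq2 Wald test (0.197 and 0.158), and that of +405.0 kb without male VAT Treg replicate 2 (0.0560). The region with the highest level, Tox +304.3 kb, spans the upper end of the gene and held 27.2 and 28.1 CPM in spleen, 22.6 and 20.3 CPM in male VAT Tregs, 25.6 and 27.1 CPM in female VAT Tregs and 29.7 and 28.6 CPM in CD4 cells. It passed no test (tissue -0.36 ± 0.19, adjusted p = 0.290), so neighbouring regions at this end of the gene differed in outcome.

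**Figure D2:**
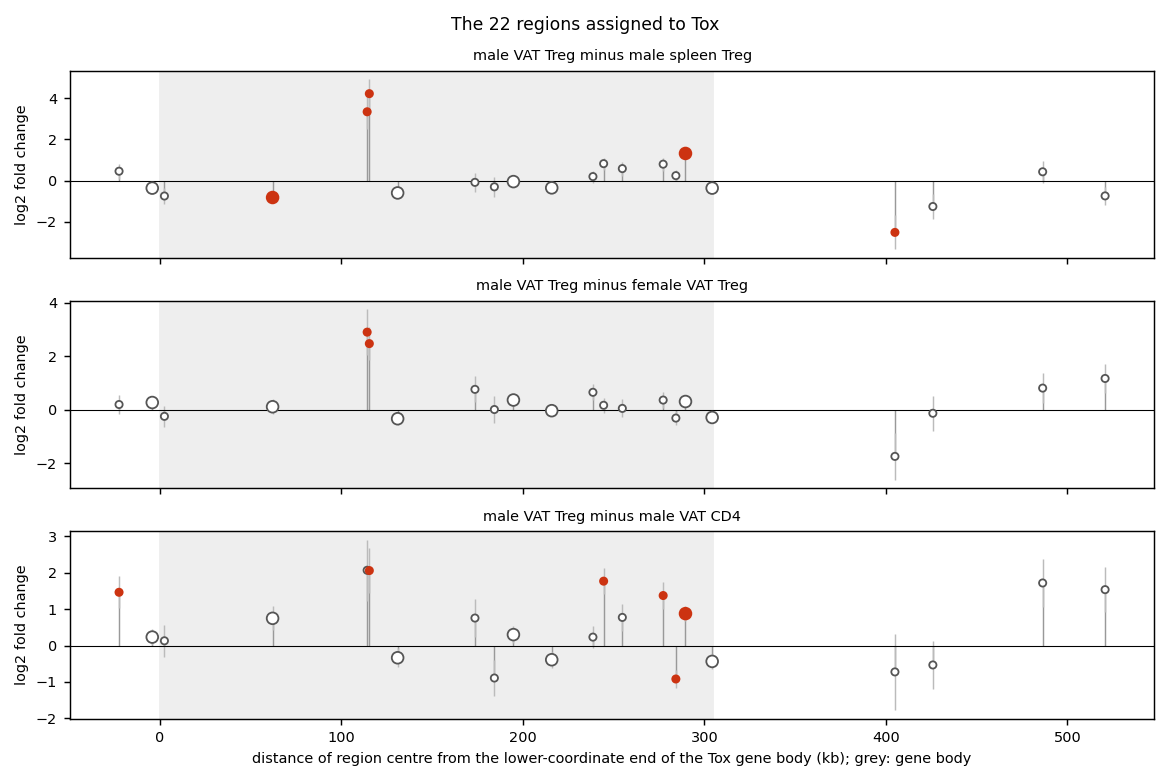
Log2 fold change (y axis, bars are approximate standard errors) of the 22 Tox regions in 3 comparisons by distance from the lower-coordinate end of the gene (x axis, kb), with the gene body in grey, large points for regions of 1000 bp or more and red for an adjusted p under 0.05. The pair at +114.2 and +115.4 kb is red over spleen and over female VAT Tregs, and +289.6 kb over spleen and over CD4 cells.

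Nr4a1 encodes Nur77, a receptor whose gene is switched on within minutes of TCR signalling and serves as a readout of it. All 4 of its regions had a log2 fold change above 0 in male VAT over spleen Tregs, and 2 of them passed. Nr4a1 +4.7 kb (chromosome 15, 101254731 to 101262440) held 15.8 and 17.3 CPM in spleen, 42.6 and 24.2 CPM in male VAT Tregs, 24.9 and 24.4 CPM in female VAT Tregs, and 24.8 and 29.9 CPM in CD4 cells. The spleen libraries were the lowest, and the second male library lay just below the female ones. The log2 fold change over spleen was 1.02 ± 0.20 (adjusted p = 2.42e-05).

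Nr4a1 +12.9 kb (101264942 to 101268671) contains the start at 101266846 whose promoter is printed above. It held 19.6 and 20.6 CPM in spleen, 41.8 and 30.1 CPM in male VAT Tregs, 28.8 and 36.3 CPM in female VAT Tregs, and 29.7 and 39.1 CPM in CD4 cells. All 6 fat libraries lay above both spleen libraries. It rose in male VAT Tregs (0.84 ± 0.19, adjusted p = 0.000642) and in female VAT Tregs (0.69 ± 0.19, 0.0329) over male spleen Tregs. Without male VAT Treg replicate 1, the male calls at +4.7 and +12.9 kb gave adjusted p of 0.135 and 0.0855 at log2 fold changes of 0.54 and 0.58. The female call was lost whichever of the 4 libraries was dropped (0.0829 to 0.684).

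Nr4a3 encodes NOR1, the third receptor of the family. Its short region +28.0 kb (chromosome 4, 48072951 to 48073141) held 0.849 and 1.25 CPM in spleen, 3.17 and 3.63 CPM in male VAT Tregs, 1.496 and 1.88 CPM in female VAT Tregs, and 3.08 and 2.02 CPM in CD4 cells. It rose in male VAT Tregs (1.62 ± 0.49, adjusted p = 0.0222), though not without any 1 of the 4 libraries (0.0766 to 0.164). A region assigned to Nr4a3 from 245 kb away, -245.7 kb, fell from 9.82 and 8.24 to 4.69 and 4.91 CPM (-0.90 ± 0.28, 0.0268), and that call too was lost without each of the 4 libraries (0.0537 to 0.232). The start region of Nr4a3, 9957 bp long, had the highest CPM of all NR4A regions, though not per kb, with 113.1 and 128.3 CPM in spleen and 180.1 and 133.7 CPM in male VAT Tregs, and did not pass (0.38 ± 0.16, 0.167). Nr4a2, which encodes Nurr1, had no called region in any of the 4 comparisons, and its start region held 16.9 to 22.04 CPM in all 8 libraries.

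Nfatc2 encodes NFAT1, the form present in resting T cells. Its short region +118.4 kb (chromosome 2, 168594784 to 168594887), inside the gene, had 1 and 4 counts in spleen, 17 and 2 in female VAT Tregs, 2 and 2 in CD4 cells, and 41 and 17 in male VAT Tregs. Of the 2 female libraries, at 1.70 and 0.235 CPM, 1 was close to the male VAT Treg libraries (2.60 and 1.81 CPM) and 1 was at the level of the spleen libraries (0.121 and 0.239 CPM). The log2 fold change of male VAT over spleen was 3.43 ± 0.82 (adjusted p = 0.00156), and 0.0855 without male VAT Treg replicate 1. Nfatc2 +98.7 kb fell from 30.3 and 28.8 to 17.9 and 21.0 CPM (-0.61 ± 0.19, 0.0331). It missed the threshold when male VAT Treg replicate 1 (0.192) or spleen replicate 1 or 2 was dropped (0.215 and 0.144) and with the replicate number as a block (0.0641). Nfatc1, which encodes the inducible form NFAT2, had 15 regions and no call in any comparison by edgeR.

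Egr2 encodes a zinc finger factor of anergic and regulatory T cells. Its distal region -30.6 kb (chromosome 10, 67502011 to 67505666) held 14.7 and 14.3 CPM in spleen, 11.4 and 12.4 CPM in female VAT Tregs, 12.5 and 11.8 CPM in CD4 cells, and 7.10 and 8.32 CPM in male VAT Tregs, the lowest of the 4 groups. It fell over spleen (-0.92 ± 0.23, adjusted p = 0.00287; 0.0760 without male VAT Treg replicate 1). The Egr2 start region, which holds the printed promoter, ranged from 56.3 to 75.7 CPM with no call (-0.18 ± 0.17, 0.637). Egr1, the first EGR gene to respond to stimulation, had 97.4% of its signal in a region of 10754 bp that reaches into the gene from its lower end, at 93.8 to 133.7 CPM, also with no call (-0.11 ± 0.17, 0.783). Egr3, a partner of Egr2, had 3 regions, all with a log2 fold change below 0 in male VAT over spleen Tregs and none called, with -0.47 ± 0.18 (0.115) at the region over the lower end of the gene.

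**Figure D3:**
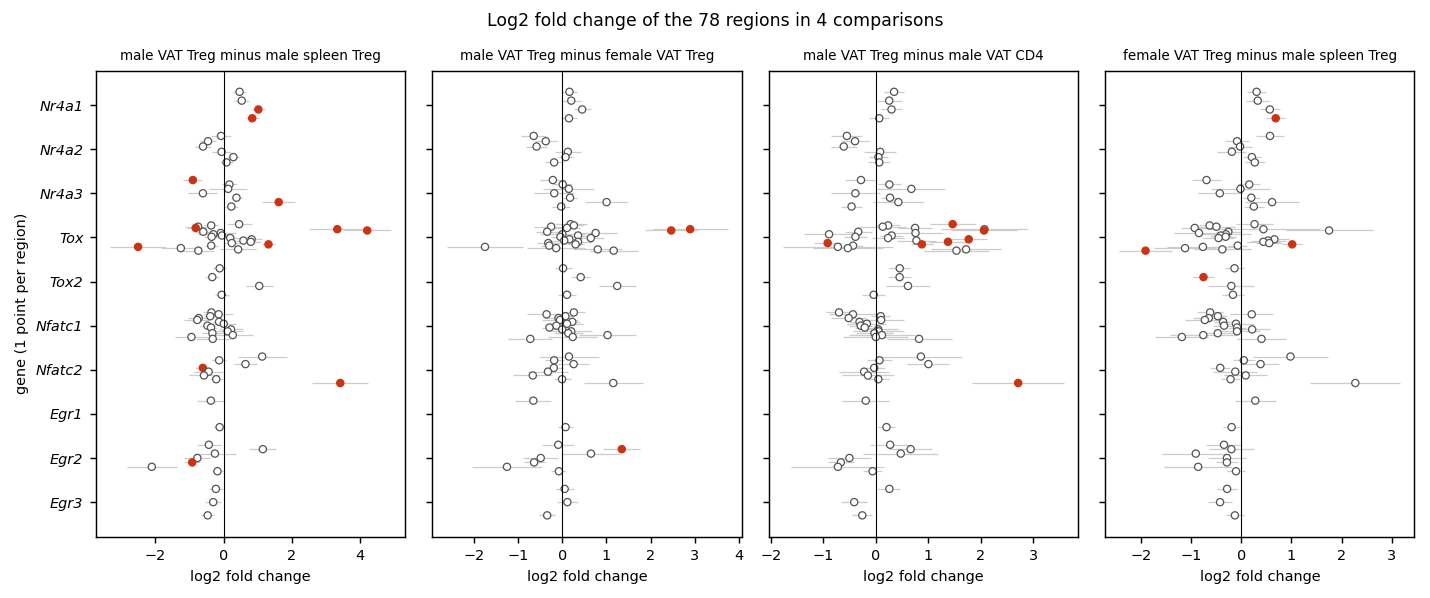
Log2 fold change (x axis, bars are approximate standard errors) of the 78 regions, 1 point each, by gene (y axis) in 4 comparisons, with red for an adjusted p under 0.05. Tox holds most red points, and Nr4a1 has all 4 points right of 0 in each panel.

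Male and female VAT Tregs were compared for the sex difference named in the title of the series. A pair of Tox regions and 1 distal Egr2 region were more open in males, 3 of 78, and no region was less open. Over all regions tested 2.04% were higher and 1.21% lower in males, so 62.7% of 1489 calls were higher. Without male VAT Treg replicate 1 that balance turned, with 17.7% of 1331 calls higher, and the median log2 fold change of the members was -0.086. In the fit of all libraries, 4.68% of regions under 1000 bp, the class of all 3 calls, were higher. The median log2 fold change was 0.07 over the members and 0.01 over all regions. At an unadjusted p under 0.05, 9 members were higher and 4 lower. The DESeq2 Wald test and limma on the deposited log2 values called 0 members in either direction, as did edgeR without male VAT Treg replicate 1 or female VAT Treg replicate 2. Without female VAT Treg replicate 1, edgeR called 1 member higher.

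At Tox +115.4 kb, where the counts per library are given above, the log2 fold change of male over female VAT Tregs was 2.47 ± 0.60 (edgeR adjusted p = 0.00428). At Tox +114.2 kb it was 2.90 ± 0.85 (0.0278), and 0.0529 with no low-count filter. This region had at most 4 counts in each library outside male VAT Tregs, so it passed the filter through the group where it is high. Tox +115.4 kb and Nfatc2 +118.4 kb would also have failed it without the male VAT Treg libraries, and Tox +405.0 kb without the spleen or the female VAT libraries. Egr2 -46.8 kb (chromosome 10, 67487537 to 67487806) held 5.96 and 3.63 CPM in male VAT Tregs, 1.40 and 2.46 CPM in female VAT Tregs, 1.82 and 2.45 CPM in spleen, and 2.12 and 3.89 CPM in CD4 cells, with 1 CD4 library inside the male VAT range. It was higher in males by 1.35 ± 0.42 (0.0432). All 3 calls were lost without male VAT Treg replicate 1, the library with the larger share of short regions, at log2 fold changes of 1.88, 2.68 and 0.92 and adjusted p of 0.334, 0.230 and 0.422. They were lost without female replicate 2 as well (0.278, 0.283 and 0.116), and those of Tox +114.2 kb and Egr2 -46.8 kb without female replicate 1 (0.470 and 0.592), and that of Tox +114.2 kb without male VAT Treg replicate 2 (0.0935).

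Female VAT Tregs over male spleen Tregs shared the spleen libraries with the tissue comparison in males and the female libraries with the sex comparison. Of the 78 regions, 2 rose and 2 fell, beside 1.18% and 0.197% of all regions. The 2 that rose were Tox +289.6 kb and Nr4a1 +12.9 kb, described above. Tox2 encodes a TOX relative known from follicular helper T cells, and its region +26.1 kb (chromosome 2, 163227362 to 163231003) fell from 23.0 and 21.3 CPM to 12.8 and 13.5 CPM (-0.75 ± 0.21, adjusted p = 0.0345). Tox +520.8 kb, 216 kb beyond the gene, fell from 2.91 and 4.24 to 1.20 and 0.704 CPM (-1.90 ± 0.52, 0.0275). Both were lost without female replicate 1 (0.559 and 0.182) or 2 (0.281 and 0.493), and without spleen replicate 2 (0.155 and 0.375), and Tox2 without spleen replicate 1 (0.315).

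**Figure D4:**
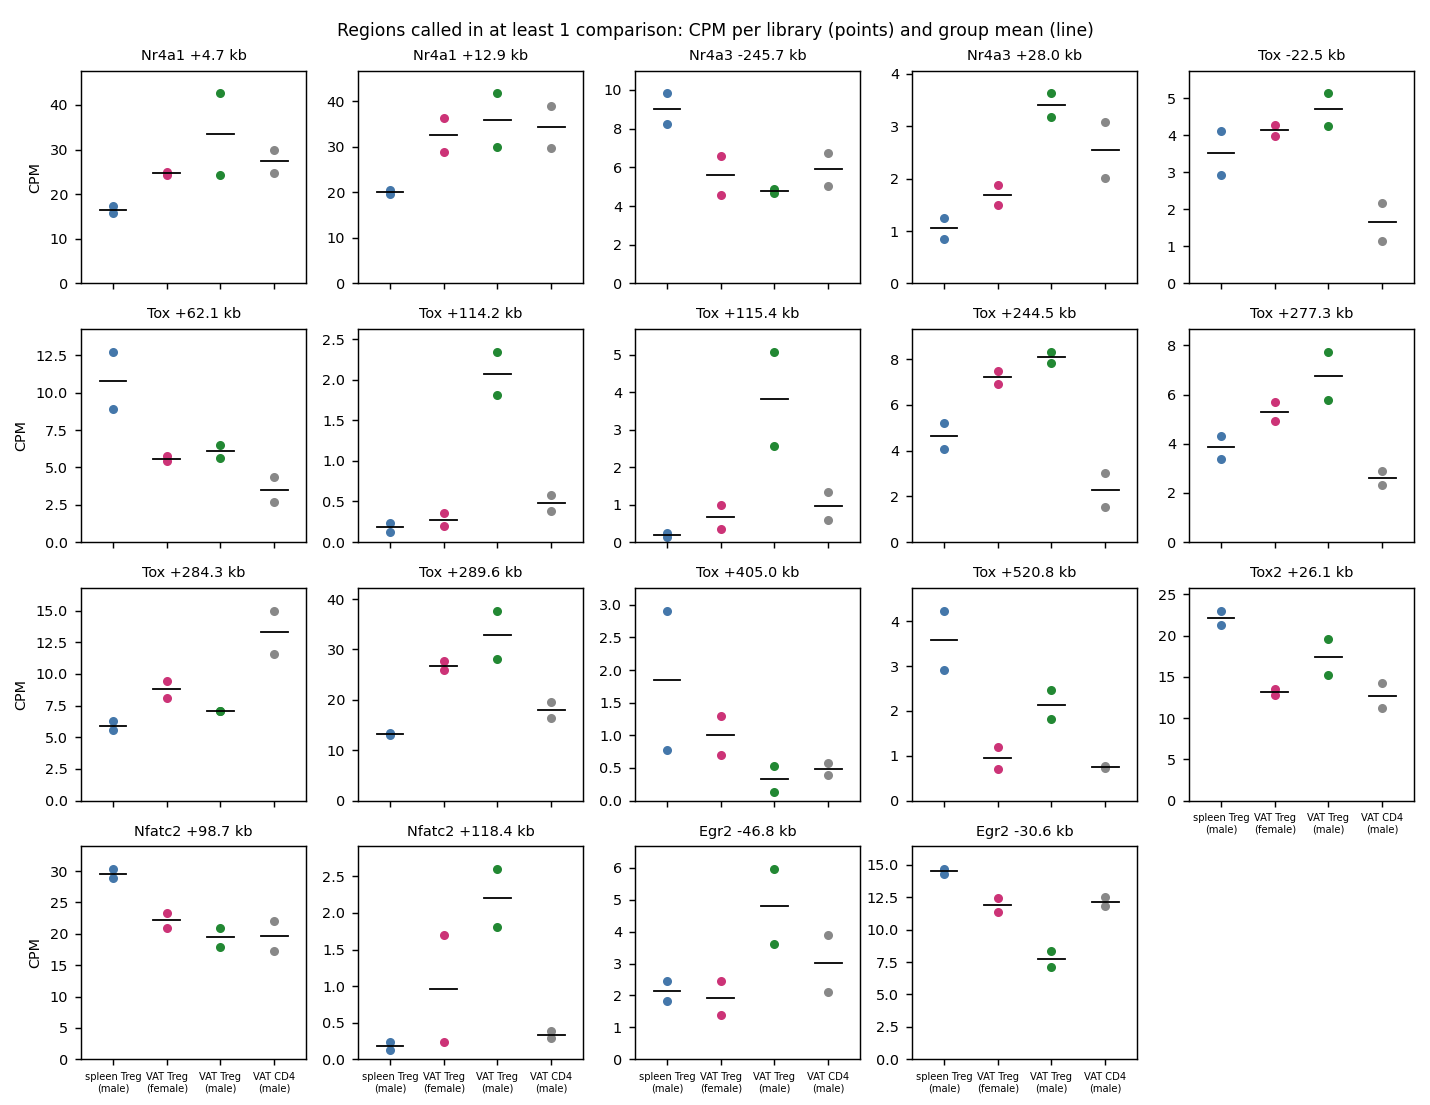
CPM per library (points, y axis from 0) and group means (lines) for the 19 regions called in at least 1 comparison, each titled by gene and distance from the lower-coordinate end of the gene, with the 4 groups on the x axis. At Tox +115.4 kb the male VAT Treg libraries, at 5.07 and 2.56 CPM, stand above the other 6, and at Tox +244.5 kb the CD4 libraries are the lowest.

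Male VAT Tregs were compared with RFP-negative CD4 T cells of the same tissue for the difference between cell types. Here the calls were concentrated at Tox, with 5 of 22 regions higher and 1 lower in Tregs, and 1 more was higher at Nfatc2. Over the 78 members, 6 were higher and 1 lower, beside 5.18% and 2.51% of all regions, and of the 41 under 1000 bp, 5 were higher and 1 lower, beside 10.3% and 3.73%. Scaled on regions under 1000 bp, the split was 2 higher and 5 lower, the median of all regions moved by -0.229, and the share of higher calls over all regions went from 67.4% to 37.9%. It was 51.3% without male VAT Treg replicate 1. With library size alone the median of all regions moved by 0.133, the share of higher calls was 81.0%, and the split of the members stayed at 6 and 1. Without male VAT Treg replicate 1, 1 member was higher and 0 were lower, and without CD4 replicate 1 the counts were 1 and 1. No region of Nr4a1, Nr4a2, Nr4a3, Tox2, Nfatc1, Egr1, Egr2 or Egr3 was called by edgeR in this comparison.

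The strongest call was Tox +244.5 kb (chromosome 4, 6930711 to 6930990), with 7.86 and 8.32 CPM in male VAT Tregs, 1.54 and 3.03 CPM in CD4 cells, 7.48 and 6.92 CPM in female VAT Tregs, and 5.21 and 4.06 CPM in spleen Tregs. Each Treg library lay above both CD4 libraries. The log2 fold change over CD4 cells was 1.77 ± 0.35 (adjusted p = 5.75e-05), a call kept without any 1 library and under each alternative. Tox +277.3 kb (6963509 to 6963870) was higher too, at 7.73 and 5.76 against 2.31 and 2.89 CPM (1.37 ± 0.36, 0.00514). Tox +289.6 kb, the leading region over spleen, was also higher than in CD4 cells (0.88 ± 0.20, 0.000897). Between these lay Tox +284.3 kb (6970444 to 6970877), which went the other way, with 7.10 and 7.04 CPM in male VAT Tregs against 11.6 and 15 CPM in CD4 cells (-0.92 ± 0.26, 0.00935).

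Of these, +277.3 and +289.6 kb lost their calls without CD4 replicate 1 (0.0862 and 0.0586) or male VAT Treg replicate 1 (0.128 and 0.0933), and +284.3 kb without CD4 replicate 2 (0.239) or male VAT Treg replicate 1 (0.0741). The other higher regions were Tox -22.5 kb (1.46 ± 0.44, adjusted p = 0.0179), Tox +115.4 kb (2.06 ± 0.63, 0.0199) and Nfatc2 +118.4 kb (2.71 ± 0.87, 0.0312). Each of the 3 was lost without CD4 replicate 1 (0.263, 0.0534 and 0.209) or male VAT Treg replicate 1 (0.137, 0.524 and 0.295), and the last 2 also without CD4 replicate 2 (0.317 and 0.284). Nfatc2 +118.4 kb was lost without male VAT Treg replicate 2 too (0.0611).

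Start regions, or the region with the highest CPM of a gene where no start was given, were compared by themselves. Over these 10 regions the log2 fold changes ran from -0.34 to 0.18 between the sexes, from -0.47 to 0.84 over spleen and from -0.44 to 0.45 over CD4 cells. Only that of Nr4a1 was called, over spleen in both VAT Treg groups. Between the sexes the approximate 95% interval was -0.705 to 0.025 at Egr3, -0.212 to 0.518 at Nr4a1, -0.146 to 0.50 at Nr4a3 and -0.249 to 0.401 at Egr1.

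The genes around the members were read from lists. Calcineurin and NFAT activation, from Plcg1 through the calcium channels to the calcineurin subunits, had 16 genes and 92 regions. Of these, 10 were higher and 4 lower in male VAT than in spleen Tregs, 3 and 0 between males and females, 4 and 7 over CD4 cells, and 3 and 0 in female VAT over spleen Tregs. As shares of the 92, 10.9% and 4.35% were higher and lower over spleen, beside 4.64% and 2.09% of all regions, 3.26% higher between the sexes, beside 2.04%, and 4.35% and 7.61% over CD4 cells, beside 5.18% and 2.51%. In female VAT over spleen Tregs 3.26% were higher, beside 1.18%. Of all regions under 1000 bp, 10.2% were higher and 1.07% lower in male VAT than in spleen Tregs. The list was not split by width. Itpr2, an inositol trisphosphate receptor that releases calcium, held 15.3 ± 7.59 CPM in male VAT Tregs, 4.70 ± 0.834 in female VAT Tregs and 2.35 ± 0.11 in spleen at its leading region (2.73 ± 0.285 over spleen, 1.72 ± 0.27 over females). Stim1, the calcium sensor of the endoplasmic reticulum, held 4.00 ± 0.528 CPM in male VAT Tregs against 9.85 ± 1.68 CPM in spleen (-1.27 ± 0.285). These 3 calls held under each alternative, but without male VAT Treg replicate 1 the log2 fold changes of Itpr2 were 2.08 over spleen and 1.07 over females. The calcineurin subunit Ppp3r1 was lower than in CD4 cells, at 3.58 ± 0.67 against 12.5 ± 1.61 CPM (-1.82 ± 0.31).

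Genes that restrain NFAT had 54 regions, of which 3 fell over spleen, at Rcan3, Dyrk2 and Rcan1, with each call lost without at least 1 library. That is 5.56% of them, beside 2.09% of all regions. In the same list 2 regions (3.7%, beside 5.18% of all regions) were higher than in CD4 cells. A region of Dyrk1a, a kinase that phosphorylates NFAT, was higher both than in CD4 cells (2.48 ± 0.66, adjusted p = 0.00471) and in female VAT over spleen Tregs (1.84 ± 0.50, 0.0238). Both calls were lost in the DESeq2 Wald test (0.0513 and 0.236), and the female call also in limma (0.144). By edgeR the female call was lost with library size alone (0.0668) and when scaled on regions under 1000 bp (0.0998). The call over CD4 cells was also lost without male VAT Treg replicate 1 or CD4 replicate 1, at log2 fold changes of 1.86 and 1.94. Whichever of its 4 libraries was dropped, the female call was lost, at log2 fold changes of 1.49 to 2.36. The other family members Nfatc3, Nfatc4, Nfat5, Egr4, Tox3 and Tox4 had 51 regions. The share of these 51 that was higher over spleen lay below the 4.64% of all regions. Of the 51, edgeR called 1, near Nfat5 and higher over spleen (3.15 ± 0.93). That call was lost in the DESeq2 Wald test (adjusted p = 0.126) and in limma (0.204), and without male VAT Treg replicate 1 (0.198) or 2 (0.0617) or spleen replicate 2 (0.216). Regulators and partners of EGR factors had 35 regions, with 3 lower over spleen (8.57%, beside 2.09% of all regions), led by a region 42.1 kb from Id3 (-1.17 ± 0.28). In this list 2 regions were higher than in CD4 cells (5.71%, beside 5.18%), and 1 was higher in female VAT over spleen Tregs (2.86%, beside 1.18%). Feedback and anergy genes had 115 regions, with 15 higher and 3 lower over spleen (median log2 fold change 0.05), 2 and 0 between the sexes, 16 and 7 over CD4 cells, and 4 and 0 in female VAT over spleen Tregs. The shares higher and lower were 13.0% and 2.61% over spleen, beside 4.64% and 2.09% of all regions, and 13.9% and 6.09% over CD4 cells, beside 5.18% and 2.51%. Among all regions under 1000 bp, 10.2% and 10.3% were higher in these 2 comparisons. Between the sexes 1.74% of the feedback and anergy regions were higher, beside 2.04% of all regions, and in female VAT over spleen Tregs 3.48%, beside 1.18%. Nfil3, a leucine zipper factor, held 14.7 ± 4.82 against 4.03 ± 0.382 CPM in spleen (1.87 ± 0.26), 15.7 kb from the gene. Cblb, a ubiquitin ligase that dampens TCR signals, had a region inside the gene at 3.12 ± 0.789 CPM in male VAT Tregs, 4.63 ± 0.0786 in female VAT Tregs, 0.633 ± 0.305 in spleen Tregs and 19.4 ± 0.564 in CD4 cells. It was higher than in spleen (2.46 ± 0.43) and lower than in CD4 cells (-2.60 ± 0.295).

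Of 7446 other autosomal genes with at least 3 regions, those whose summed log2 CPM followed that of Tox most closely over the 8 libraries were Nck2 (Pearson's r = 0.957), Rere (0.953) and Alpk2 (0.949), with Spearman's rho of 0.81, 0.81 and 0.738. They are the top of a ranking, the libraries share their scaling, and the values are descriptive.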

How the data were processed

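ATAC-seq regions from 8 libraries, 2 per group, were analysed. The deposited table held raw read counts per region, whole numbers and not normalized. Tools listed in the submitters' processing notes are featureCounts, limma, HOMER 4.9 and Subread 1.6.2. The peak caller and the rule that assigned regions to genes are not given in the sources used here. The authors also deposited log2 normalized values, used only in 1 alternative fit. Coordinates are mm10 as the table gives them, and 20 of its 62205 entries start at 0.

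Entries were reduced to 46624 distinct regions, 112 on mitochondrial or unplaced sequence were left out, and 45709 of the remaining 46512 passed edgeR's filterByExpr. Counts were scaled by TMM and fitted over the 4 groups with edgeR's quasi-likelihood test (edgeR 4.0.16, R 4.3.3), leaving 4 residual degrees of freedom. P-values were adjusted by Benjamini-Hochberg over all regions tested, and called means adjusted p under 0.05. The error after ± on a log2 fold change is approximate, being that change over √F. An exact permutation test of 2 against 2 libraries cannot go below p = 0.333. The comparisons share the male VAT Treg or the spleen libraries. Alternatives used DESeq2 1.42.0 and limma 3.58.1, other scalings, no filter, only the groups compared, a replicate block and each library left out. The test was tried on simulated data.

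The members and lists were chosen with earlier results of these data known. Named regions were each gene's start region, or its region with the highest mean CPM where no start was given. Every called member region was also named, with up to 3 called genes per list, comparison and direction. 1 named gene of these lists is not reported here.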

Additional observations from a re-analysis of the deposited data

How the results depend on the processing

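No call on a member reversed under any alternative, and over all alternatives the 26 calls were kept 207 times and lost 105 times. The 4 calls kept throughout were Tox +115.4 and +289.6 kb over spleen, Tox +289.6 kb in female VAT over spleen Tregs, and Tox +244.5 kb over CD4 cells. Tox +115.4 kb would have failed the low-count filter without the male VAT Treg libraries, where it is high. Keeping its call across refits is therefore no independent support for it. In male over female VAT Tregs, 3 higher members became 0 in the DESeq2 Wald test and 0 in limma, and 0 to 4 when a library was left out. In male VAT over spleen Tregs, 7 higher members became 2 to 11 without 1 library. The 5 lower members became 1 in the DESeq2 Wald test, 3 with library size alone, 1 in limma, 3 with only the 2 groups compared, 8 when scaled on regions under 1000 bp, and 1 to 3 without 1 library. Over CD4 cells, 6 higher members became 3 in the DESeq2 Wald test, 2 when scaled on regions under 1000 bp and 1 to 8 without 1 library, and 1 lower member became 0, 5 and 0 to 1. In female VAT over spleen Tregs, 2 higher members became 1 in the DESeq2 Wald test, with library size alone, in limma, when scaled on regions under 1000 bp and without any 1 library. The 2 lower members became 0 in the DESeq2 Wald test and in limma, 5 with only the 2 groups compared, 1 when scaled on regions under 1000 bp and 0 to 1 without 1 library. With the replicate number as a block, the counts of lower members over spleen became 2 (male VAT) and 1 (female VAT), that of higher members in female VAT 1, and those of the sex and cell-type comparisons stayed at 3, 0, 6 and 1. Deviations of libraries with the same number correlated at -0.146 to 0.0666 between groups. The labels state no pairing, and these values cannot tell whether libraries with the same number shared mice or a sort. The causes were not tested. Tox +114.2 kb had 1 to 4 counts in each library outside male VAT Tregs.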
